A study of Mus musculus with 19 samples.

Results

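Neurofilament and pan-neuronal marker genes were followed in 19 mouse brain RNA-seq libraries through 10 genes found by symbol from their Ensembl IDs, out of 53801 gene IDs in the count tables. They are the neurofilament subunits Nefl, Nefm and Nefh and the neuronal genes Rbfox3, Map2, Tubb3, Stmn2, Uchl1, Eno2 and Gap43, and their membership was set by name. The study compared mice made to express dipeptide repeat proteins of proline and arginine, poly(PR), or of glycine and arginine, poly(GR), with mice given GFP. Such proteins are translated from the expanded C9orf72 repeat of familial amyotrophic lateral sclerosis and frontotemporal dementia. The 7 poly(PR) mice (4 female, 3 male) received AAV1-GFP-(PR)50 and their 4 GFP controls (3 female, 1 male) received AAV1-GFP. The 4 poly(GR) mice (3 female, 1 male) received AAV1-GFP-(GR)100 and their 4 own GFP controls (2 female, 2 male) received AAV1-GFP. In both cohorts the controls were harvested with the mice they are set against. All animals were of the C57BL/6 strain, were injected on the day of birth with 2 μl of virus into each cerebral ventricle, expressed GFP, and were 3 months old. The sampled tissue was a homogenate of hippocampus and cortex, and the sources used here name neither the promoter of the vectors nor the share of cells that took up virus.

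Neurofilaments are the intermediate filaments of axons. The light chain Nefl forms the filament core with the medium and heavy chains Nefm and Nefh, whose long phosphorylated tails project from it, and filament content is known to go with axon calibre. Neurofilament protein released from damaged axons into blood and spinal fluid is used as a marker of axon loss, which is a protein measure and was not made here. Rbfox3 encodes the splicing regulator known as NeuN, Map2 a dendritic microtubule-associated protein, Tubb3 a neuronal beta-tubulin, Stmn2 the tubulin-binding protein stathmin-2, Uchl1 a neuronal deubiquitinating enzyme, Eno2 the neuronal enolase of glycolysis, and Gap43 a growth cone protein. In a homogenate, fewer neurons and less RNA per neuron cannot be told apart.

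The libraries held 26934239 to 47648711 reads assigned to genes, and all 10 genes had at least 1314 reads in every library. Cortical and hippocampal markers were well expressed: Slc17a7, the vesicular glutamate transporter of cortical excitatory neurons, averaged 1065 to 1218 CPM (counts scaled to a common library size) in the 4 groups, and the dentate gyrus marker Prox1 averaged 18.5 to 29.4 CPM. No region or cell type marker was at 0 in all libraries of a group. Markers of striatum were also present and differed between groups, as given with the gene lists further on. The replicate animals are separate mice per the labels, and no pair of libraries within a group agreed within sampling noise.

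4 of the 10 genes share exonic bases with a gene on the opposite strand, and this bears on what was counted. Nefl (chr14:68083863-68089095, GRCm38, plus strand) lies on the opposite strand inside the annotated span of Nefm (chr14:68082590-68124846, minus strand), because one Nefm transcript, Nefm-202, has a last exon that covers the start of Nefl. They share 1108 bases, which is 32.8% of the exonic bases of Nefl and 19.2% of those of Nefm. Uchl1 (chr5:66676091-66687234, plus strand) shares 295 bases, 18.1% of its exonic length, with the antisense gene Uchl1os. Map2 (chr1:66175273-66442583, plus strand) shares 124 bases, 0.75%. Nefh (chr11:4938754-4948064, minus), Rbfox3 (chr11:118489762-118911597, minus), Tubb3 (chr8:123411424-123422015, plus), Stmn2 (chr3:8509360-8561606, plus), Eno2 (chr6:124760053-124769673, minus) and Gap43 (chr16:42248442-42340651, minus) share none in the annotation used here. The stretch of coding sequence below runs across the end of the overlap in Nefl. Capitals are the 144 bases that are coding in both Nefl and Nefm-202, where their reverse complement is found. Lower case are the 39 bases that belong to Nefl alone (chr14:68084827-68085009, plus strand, from the GENCODE transcripts). The rest of the 1108 shared bases, towards the start of Nefl, is not shown.
Nefl: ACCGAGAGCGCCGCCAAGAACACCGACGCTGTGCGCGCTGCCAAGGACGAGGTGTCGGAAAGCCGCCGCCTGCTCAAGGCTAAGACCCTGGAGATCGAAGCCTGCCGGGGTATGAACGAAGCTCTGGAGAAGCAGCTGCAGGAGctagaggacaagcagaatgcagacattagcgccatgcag
The first coding bases of Uchl1 lie in the same position towards Uchl1os, and all 33 of them are shared (chr5:66676290-66676322, plus strand).
Uchl1: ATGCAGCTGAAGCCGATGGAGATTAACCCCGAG

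An unstranded count gives reads over such bases to neither gene. In the 14 libraries whose tables also hold a column for each strand, the strand columns of Nefl and of Nefm exceeded the unstranded column by exactly the same number of reads, which is the number that overlapped both genes. The reads so lost were 19.9%, 31.5% and 36.1% (lowest, median, highest) of the sum of Nefl and shared reads in the 7 poly(PR) libraries, against 25.6% to 38.4% in their 4 GFP libraries. In the poly(GR) cohort they were 41.4% and 43.8% in the 2 poly(GR) libraries with strand columns, against 39.2% in the 1 GFP library that has them. For Uchl1 the share lost was 10.2% to 18.1% in poly(PR) libraries and 14.2% to 18.4% in GFP libraries. The levels of Nefl and Uchl1 below are therefore lower than the transcripts' own output, by an amount that differs between libraries. Nefm was not given the shared reads either, and they came to 48.1% to 95.8% of its counted reads. Reads fell evenly on both strands, so how many of the shared reads came from Nefm cannot be told. As a percent of counted reads, the excess of the strand columns came to at most 4.13% for Nefh, 1.34% for Map2 and 0.01% for Eno2. It was 0 for Rbfox3, Tubb3, Stmn2 and Gap43.

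Per length, the genes kept nearly the same order in every group. In RPKM, which is CPM divided by the kilobases of exonic sequence, Uchl1 was highest, at 313 in poly(PR) and 313 in GFP libraries of the first cohort and at 275 in poly(GR) and 269 in GFP libraries of the second. Eno2 came next (207 and 214 RPKM, then 206 and 200 RPKM, in the same order of groups), followed by Tubb3 with 177 and 200 RPKM and 186 and 193 RPKM. Gap43 had 145 to 147 RPKM and Nefl 85.4 to 97.0 RPKM in the 4 groups. Stmn2 and Map2 (54.9 to 66.6 RPKM) could not be ordered, since their ranges overlapped in each of the 4 groups and Map2 stood above Stmn2 in poly(GR) libraries only. Rbfox3 (43.7 to 49.9 RPKM), Nefm (30.7 to 42.0 RPKM) and Nefh (14.7 to 21.4 RPKM) followed without overlap among these 3. The Nefm values leave out the shared reads, which came to 48.1% to 95.8% of its counted reads. Its place below Rbfox3 therefore holds for counted reads only. Eno2 and Tubb3 overlapped in every group except poly(GR), and in poly(PR) libraries so did Tubb3 with Gap43 and Map2 with Rbfox3. With the shared reads added, Nefl reached 124 RPKM in poly(PR) and 145 RPKM in GFP libraries. Molar ratios of the 3 subunits cannot be read from these values.

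**Figure D1:**
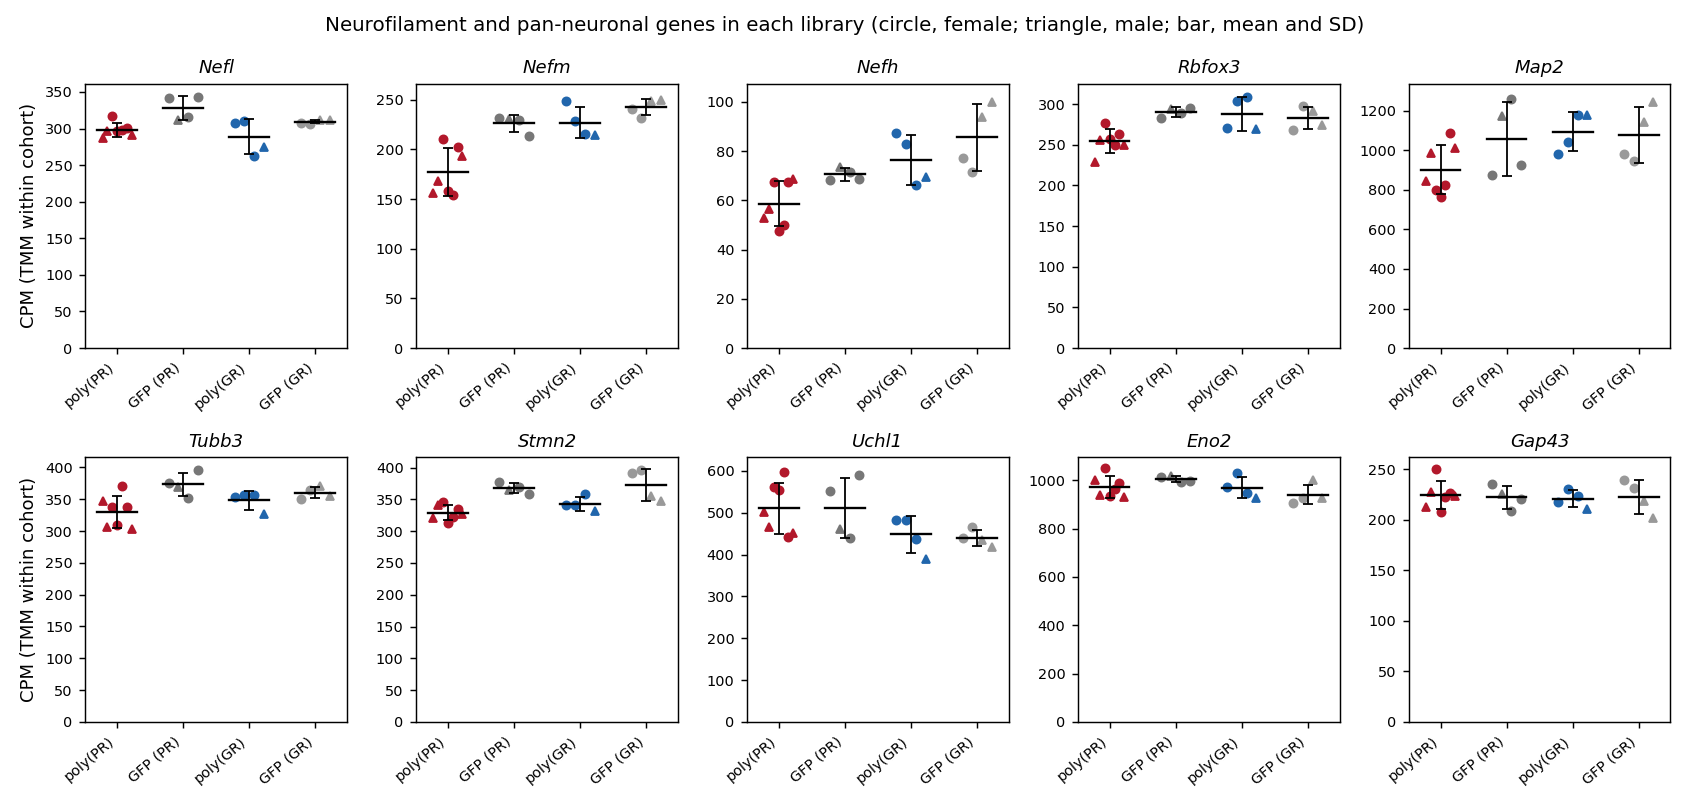
Level of each of the 10 genes in every library, in CPM after TMM scaling within the cohort, in poly(PR), its GFP controls, poly(GR) and its GFP controls from left to right (circles female, triangles male, bars mean and SD). Nefm, Rbfox3 and Stmn2 are the genes whose 7 poly(PR) libraries all lie below all 4 GFP libraries.

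Against GFP, none of the 10 genes passed the test in poly(PR) mice, while 8 of them lay below 0 on the log2 scale. Across the genome, edgeR's quasi-likelihood test with sex in the model called 0.0574% of 19156 genes at an adjusted p under 0.05. At an unadjusted p under 0.05 there were 6 of the 10 genes, all of them lower in poly(PR), against 7.31% of all genes lower and 14.9% in either direction. For 3 of the 10, Nefm, Rbfox3 and Stmn2, every poly(PR) library lay below every GFP library, which held for 1.32% of all genes. The median log2 fold change of the 10 genes was -0.16, against 0.006 for all genes tested, and 48.9% of all genes lay below 0. On simulated counts with the same design the test recovered 52% of genes changed 1.5-fold, and each of the 10 estimates here was smaller than that. The genes changed there were drawn at random over the range of expression, so 52% is not the recovery for these 10 genes. Other ways of fitting the same counts passed some of the 10, always lower in poly(PR). DESeq2 passed Rbfox3 and Stmn2, where it called 2.34% of all genes. With the mitochondrial share as a covariate edgeR passed Nefm and Rbfox3 (5.54% of all genes), and with 1 surrogate variable it passed Nefm (3.15% of all genes).

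The neurofilament subunits were all lower on average in poly(PR) libraries. Nefm, the medium chain, had 154, 168 and 211 CPM (lowest, median, highest) in poly(PR) libraries, against 232, 231, 230 and 214 CPM in the 4 GFP libraries. The highest poly(PR) library stayed just under the lowest GFP library. Its log2 fold change was -0.34 (95% interval -0.56 to -0.13), and edgeR's adjusted p was 0.188. Nefh, the heavy chain, had 47.6, 56.4 and 68.6 CPM in poly(PR) libraries, against 68.3, 73.7, 71.4 and 68.7 CPM in GFP libraries. Here 6 of the 7 poly(PR) libraries lay below all controls, with 4 libraries at 47.6 to 56.4 CPM and the other 3 close to the controls. The log2 fold change of Nefh was -0.27 (SE 0.11, edgeR adjusted p = 0.299). Nefl, the light chain, had 287, 297 and 317 CPM in poly(PR) libraries, against 341, 311, 315 and 343 CPM in GFP libraries. Only 1 poly(PR) library exceeded the lowest control, at a log2 fold change of -0.12 (SE 0.05, edgeR adjusted p = 0.312).

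Adding the reads shared with Nefm changed the size of the Nefl difference. Own and shared reads of Nefl together came to 419 ± 42.8 CPM in poly(PR) libraries (SD, n = 7) and 489 ± 19.9 CPM in GFP libraries (SD, n = 4), a log2 fold change of -0.22 with SE 0.08 and an edgeR adjusted p of 0.269. Given to Nefm instead, the shared reads put Nefm at -0.39 (SE 0.15, edgeR adjusted p = 0.281). Both ways of counting were added after the values had been seen, and neither brought a gene past the threshold.

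Rbfox3 and Stmn2 differed little in size but evenly across animals. Rbfox3 had 228, 256 and 276 CPM (lowest, median, highest) in poly(PR) libraries, against 283, 294, 290 and 296 CPM in GFP libraries, without overlap. The log2 fold change was -0.18 (95% interval -0.31 to -0.06, edgeR adjusted p = 0.228). Stmn2, whose loss through cryptic splicing is known from human motor neurons lacking TDP-43, had 313, 327 and 346 CPM in poly(PR) libraries, against 378, 365, 369 and 359 CPM in GFP libraries. These groups did not overlap either, and the log2 fold change was -0.16 (95% interval -0.28 to -0.04, edgeR adjusted p = 0.241). Gene counts do not show splicing, so cryptic exons were not examined.

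Map2 and Tubb3, the microtubule genes, overlapped between groups. Map2 had 763, 847 and 1086 CPM in poly(PR) libraries, against 876, 1176, 1259 and 927 CPM in GFP libraries. Its controls alone spanned a wide range (SD 187 CPM around 1059 CPM), and 4 of 7 poly(PR) libraries lay below all of them, at a log2 fold change of -0.26 (SE 0.12, edgeR adjusted p = 0.339). Tubb3 had 303, 338 and 370 CPM in poly(PR) libraries, against 375, 370, 352 and 396 CPM in GFP libraries. With 6 of 7 libraries below all controls its log2 fold change was -0.17 (SE 0.07, edgeR adjusted p = 0.302).

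Uchl1, Eno2 and Gap43 lay closest to 0. Uchl1 averaged 511 ± 60.8 CPM in poly(PR) libraries (SD, n = 7) and 511 ± 72.0 CPM in GFP libraries (SD, n = 4), with a log2 interval of -0.18 to 0.24. Eno2 averaged 973 ± 44.5 CPM in poly(PR) libraries and 1006 ± 11.3 CPM in GFP libraries (log2 interval -0.16 to 0.08). Of its 7 poly(PR) libraries 5 lay below all controls and 1 above all of them. Gap43 averaged 224 ± 13.6 CPM in poly(PR) and 222 ± 11.3 CPM in GFP libraries (log2 interval -0.13 to 0.16). For each of these 3 genes, as for all 10 in poly(PR), the interval from the counted reads leaves out a change of 1.5-fold in either direction. It came nearest to that for Nefm, whose interval reached down to a fold of 0.678. The counted reads leave out those that Nefm shares with Nefl. With these given to Nefm its log2 fold change was -0.39 (SE 0.15). No interval is given here for that fit, so the exclusion does not cover it.

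**Figure D2:**
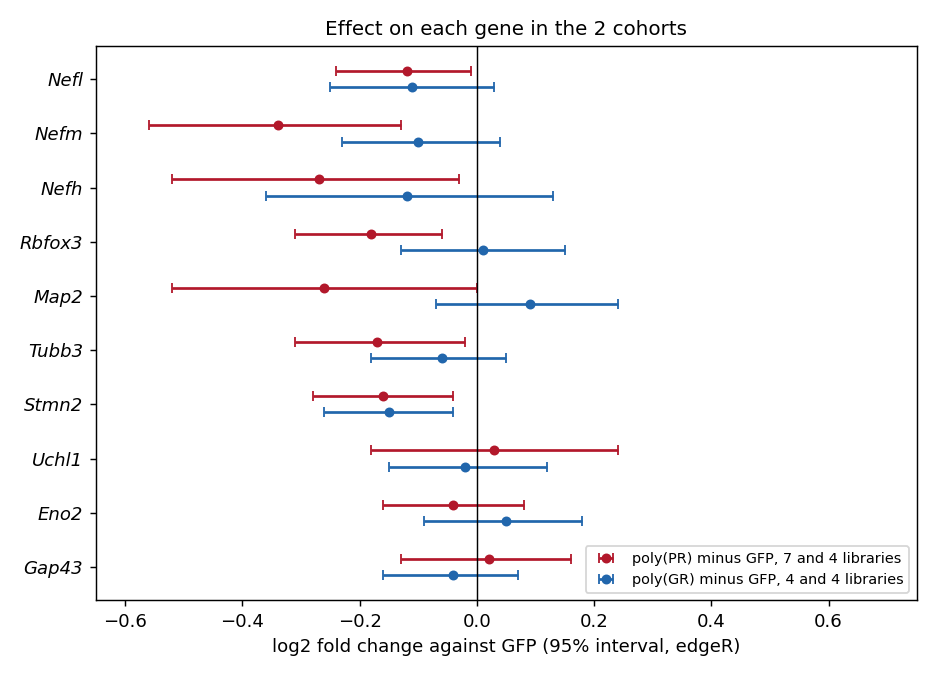
Log2 fold change of each gene against the GFP controls of its cohort with its 95% interval from edgeR, poly(PR) in red above poly(GR) in blue. The poly(PR) estimates run from -0.34 for Nefm to 0.03 for Uchl1 and the poly(GR) estimates from -0.15 for Stmn2 to 0.09 for Map2.

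Within the poly(PR) cohort, several of these values moved with the mitochondrial share of gene reads, which was 4.65 ± 0.955% in poly(PR) libraries (SD, n = 7) and 4.48 ± 0.918% in GFP libraries (SD, n = 4), an exact permutation p of 0.770. These relations were looked for after the values had been seen, and 12 were computed. The share of Nefl reads lost to the overlap, at the 5' end of the transcript, was lower where the mitochondrial share was higher (Pearson r = -0.93 and Spearman rho = -0.91 over 11 libraries, permutation p = 4e-05 and 0.00015, adjusted 0.00048 and 0.0009). Without the 2 libraries farthest from the median r was -0.94, and within the 7 poly(PR) libraries alone it was -0.95 (exact permutation p = 0.000992, adjusted 0.00298). The share lost at the start of Uchl1 behaved alike, with r = -0.91 and rho = -0.94 over the cohort (permutation p = 0.0002 and 0.00011, adjusted 0.0012 and 0.0009), -0.86 without the 2 farthest libraries and -0.96 within poly(PR) libraries (exact permutation p = 0.000595). Uchl1 levels went the other way, with r = 0.81 and rho = 0.83 (permutation p = 0.00311 and 0.00259, adjusted 0.00746 and 0.00833), 0.64 without the 2 farthest libraries. Within poly(PR) libraries the Uchl1 value was 0.73 (exact permutation p = 0.0673), and it dropped to 0.16 without the 2 farthest libraries, so there it rests on them. For Map2 levels r was -0.66 and rho -0.69 over the cohort (permutation p = 0.0289 and 0.0224, adjusted 0.0386 and 0.0384), -0.75 without the 2 farthest libraries, and -0.63 within poly(PR) libraries (exact permutation p = 0.135).

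Nefm and Nefh levels were also set against the mitochondrial share. Within the 7 poly(PR) libraries r was -0.82 for Nefm (exact permutation p = 0.0194, adjusted 0.0386) and -0.85 for Nefh (exact permutation p = 0.0240, adjusted 0.0386), with -0.86 and -0.83 without the 2 farthest libraries. The rank correlations there were -0.93 and -0.82 (exact permutation p = 0.00675 and 0.0341, adjusted 0.0162 and 0.0512). Over the whole cohort r was -0.55 for Nefm (permutation p = 0.0841, adjusted 0.0918) and -0.65 for Nefh (permutation p = 0.0284, adjusted 0.0386), and -0.62 and -0.81 without the 2 farthest libraries. The rank correlations over the cohort were -0.49 and -0.51 (permutation p = 0.131 and 0.116, adjusted 0.152 for both). The share lost at the start of Nefl averaged 28.3 ± 6.49% in poly(PR) libraries and 32.8 ± 5.91% in GFP libraries, an exact permutation p of 0.285 (n = 7 and 4). What sets the mitochondrial share in these libraries was not tested.

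**Figure D3:**
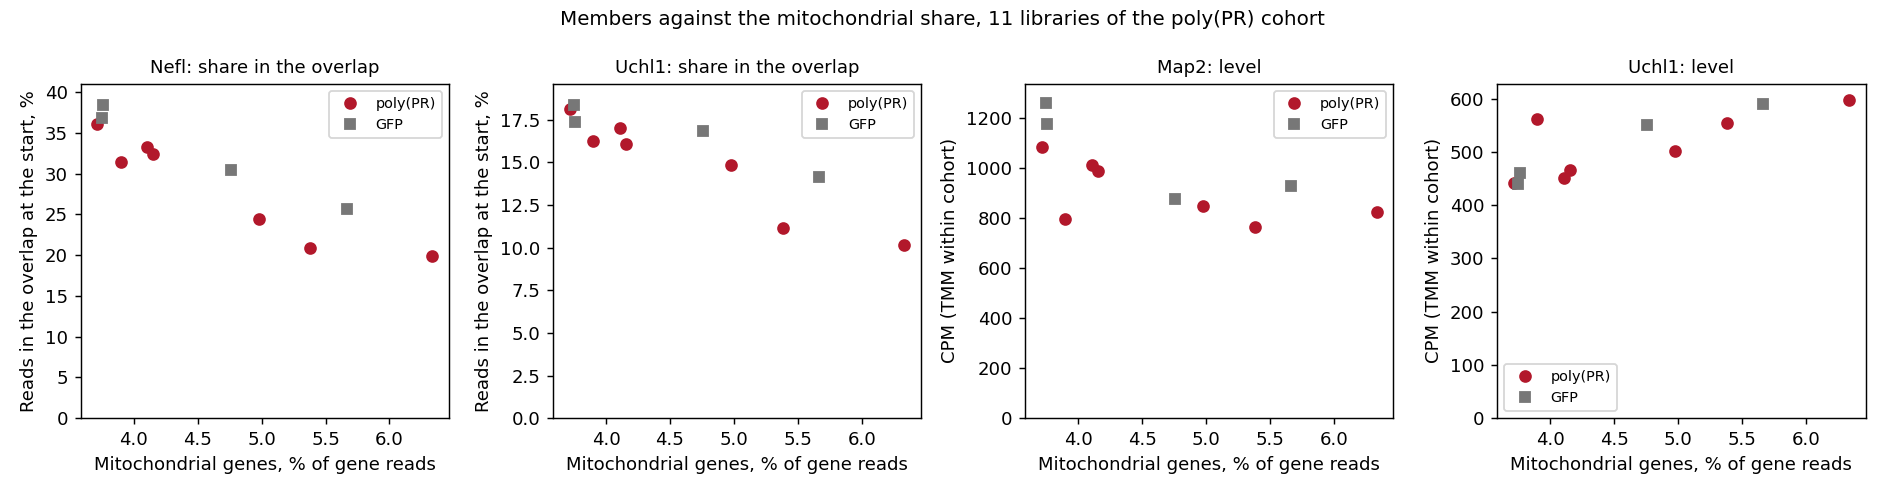
Share of Nefl and of Uchl1 reads lost to the antisense overlap, in percent, and levels of Map2 and Uchl1 in CPM, against the percent of gene reads from mitochondrial genes in the 7 poly(PR) (circles) and 4 GFP (squares) libraries. Both overlap shares decrease from left to right (r = -0.93 for Nefl and -0.91 for Uchl1), Map2 decreases (r = -0.66) and Uchl1 increases (r = 0.81).

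The ratios between subunits, which need no scaling, were compared by exact two-sided permutation tests over libraries. The ratio of Nefm to Nefl counts had a geometric mean of 0.591 in poly(PR) and 0.691 in GFP libraries, a log2 difference of -0.23 (exact p = 0.0424, adjusted 0.255 over the 6 ratios tested, 4 of 7 poly(PR) libraries below all controls). The ratio of Nefh to Nefl was 0.195 in poly(PR) and 0.215 in GFP libraries (exact p = 0.242). Nefh to Nefm was 0.329 in poly(PR) and 0.312 in GFP libraries (exact p = 0.0909). None of the 6 ratios passed after adjustment, where the smallest p the design allows is 0.00606 for poly(PR) and 0.0286 for poly(GR). With the shared reads added to Nefl, Nefm per Nefl was 0.422 ± 0.0239 in poly(PR) libraries and 0.463 ± 0.00699 in GFP libraries (SD, n = 7 and 4). In the other cohort Nefm to Nefl was 0.786 in poly(GR) and 0.784 in GFP libraries (exact p = 0.829), Nefh to Nefl 0.264 and 0.274 (exact p = 0.714), and Nefh to Nefm 0.336 in poly(GR) and 0.350 in GFP libraries (exact p = 0.571).

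**Figure D4:**
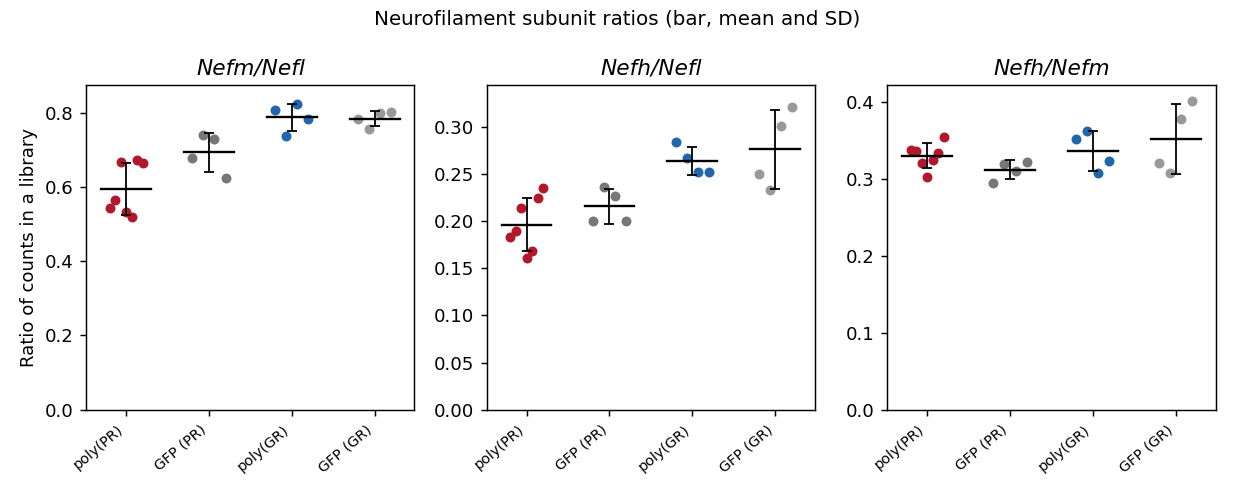
Ratios of the counts of Nefm to Nefl, Nefh to Nefl and Nefh to Nefm in each library (points) with mean and SD (bars), for poly(PR), its GFP controls, poly(GR) and its GFP controls. For Nefm to Nefl the poly(PR) libraries have a geometric mean of 0.591, against 0.691 in their GFP controls, and their points overlap.

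In poly(GR) mice the 10 genes stood close to their own GFP controls. None passed edgeR's test, which called 0.173% of 18511 genes, and 1 of the 10, Stmn2, had an unadjusted p under 0.05 against 11.5% of all genes. DESeq2 passed none of them either. Of the 10, 7 lay below 0, as did 49.0% of all genes. The median log2 fold change of the 10 was -0.05, against 0.003 for all genes. Stmn2 had 342, 341, 358 and 331 CPM in poly(GR) libraries, against 392, 396, 355 and 347 CPM in GFP libraries. The groups overlapped through 1 poly(GR) library, and the log2 fold change was -0.15 (95% interval -0.26 to -0.04, edgeR adjusted p = 0.321). Both female GFP libraries stood above both male ones for Stmn2. The deposited tables of this cohort have 2 layouts that cross both groups. Among the 2-column tables, 2 poly(GR) against 3 GFP libraries, the Stmn2 estimate was -0.13. The 4-column tables hold only 1 GFP library and give no comparison of replicates.

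The neurofilament subunits in poly(GR) libraries overlapped with their controls. Nefl had 308, 310, 262 and 274 CPM in poly(GR) libraries, against 308, 307, 311 and 312 CPM in GFP libraries. A pair of poly(GR) libraries lay well below controls that agreed closely, and the log2 fold change was -0.11 (interval -0.25 to 0.03, edgeR adjusted p = 0.552). Nefm had 248, 228, 216 and 214 CPM in poly(GR) libraries, against 240, 232, 248 and 250 CPM in GFP libraries, a log2 fold change of -0.10 (interval -0.23 to 0.04). Nefh had 87.4, 82.8, 66.3 and 69.3 CPM in poly(GR) libraries, against 77.1, 71.3, 93.8 and 100.1 CPM in GFP libraries, and the groups overlapped widely. Its log2 fold change of -0.12 (interval -0.36 to 0.13) became 0.09 in female libraries alone, 3 poly(GR) against 2 GFP, and was -0.19 in the 2-column tables. Rbfox3 (0.01), Map2 (0.09), Tubb3 (-0.06), Uchl1 (-0.02), Eno2 (0.05) and Gap43 (-0.04) had log2 fold changes whose intervals all include 0.

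The poly(PR) effect minus the poly(GR) effect was tested directly in 1 fit of all 19 libraries, although the peptides also differ in repeat number, 50 against 100. No gene of 19863 passed (0.0%), with 1066 genes at an unadjusted p under 0.05 in edgeR and 4 genes called by DESeq2, none of them among the 10. Of the 10, 1, Rbfox3, was at an unadjusted p under 0.05, as were 5.37% of all genes. For Map2 the difference in log2 fold change was -0.33 (interval -0.68 to 0.01), for Nefm -0.24 (interval -0.52 to 0.04) and for Rbfox3 -0.19 (SE 0.09), with an edgeR adjusted p of 0.786 for each. For Nefl it was -0.01 (interval -0.17 to 0.15) and for Stmn2 -0.02 (interval -0.18 to 0.14). Male over female, in the same fit, called none of the 10 and 0.0352% of all genes. Uchl1 was at -0.17 (SE 0.06, edgeR adjusted p = 0.252) and Map2 at 0.19 (SE 0.08, edgeR adjusted p = 0.312), the 2 of the 10 genes at an unadjusted p under 0.05, as were 14.6% of all genes.

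Genes that work with neurofilaments lay on both sides of 0 and none passed the test. Of 13 genes for partners, transport and turnover, 0 passed edgeR's test in either cohort. In poly(PR) 10 lay below 0 with a median of -0.24, and in poly(GR) 11 lay below 0 with a median of -0.03. Over all genes tested, 0.0574% passed and 48.9% lay below 0 in poly(PR), with a median of 0.006, and 0.173% passed and 49.0% lay below 0 in poly(GR), with a median of 0.003. These shares are the background for each list that follows. Ina, the alpha-internexin subunit that joins the same filaments, averaged 157 CPM in poly(PR) and 186 CPM in GFP libraries (log2 fold change -0.24, edgeR adjusted p = 0.183). Kif5a, a kinesin of axonal transport, averaged 3119 CPM in poly(PR) and 3765 CPM in GFP libraries (-0.24, adjusted p = 0.254). Vim, the intermediate filament protein vimentin of glia and vessels, had 50.0 CPM in poly(PR) and 40.6 CPM in GFP libraries (0.31, adjusted p = 0.233). In poly(GR), Ina was at -0.15 and Vim at 0.22.

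No gene of the microtubule or pan-neuronal lists passed either. Of 19 tubulin, stathmin and microtubule-associated genes, 0 passed in either cohort, with 15 below 0 and a median of -0.13 in poly(PR), and 11 below 0 and a median of -0.04 in poly(GR). Tuba4a, an alpha-tubulin, averaged 344 CPM in poly(PR) and 411 CPM in GFP libraries (log2 fold change -0.24, edgeR adjusted p = 0.171). Of 17 further pan-neuronal genes, 0 passed in either cohort, with 15 below 0 and a median of -0.11 in poly(PR), and 5 below 0, 12 above 0 and a median of 0.02 in poly(GR). Snap25, a protein of the synaptic fusion machinery, averaged 2469 CPM in poly(PR) and 2955 CPM in GFP libraries (-0.27, edgeR adjusted p = 0.114). The RNA-binding protein gene Elavl4 was at -0.48 in poly(PR) (edgeR adjusted p = 0.226) and -0.26 in poly(GR) (edgeR adjusted p = 0.106). The neuronal noncoding RNA Snhg11 averaged 1313 CPM in poly(GR) and 1088 CPM in GFP libraries (0.37, edgeR adjusted p = 0.0812).

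Of 6 paralogs of Rbfox3, Uchl1 and Eno2, 0 passed in either cohort, with medians of -0.03 in poly(PR) and 0.00 in poly(GR). Of 16 genes of axon growth and axon injury, 14 had enough reads to be tested and 0 passed in either cohort, with medians of 0.05 in poly(PR) and 0.03 in poly(GR). Adcyap1, the gene of the neuropeptide PACAP, had the smallest p of this list in both cohorts. It averaged 11.7 ± 1.00 CPM in poly(PR) and 14.1 ± 2.02 CPM in GFP libraries (SD, n = 7 and 4, log2 fold change -0.30, edgeR adjusted p = 0.181). In the second cohort it averaged 13.1 ± 0.669 CPM in poly(GR) and 15.8 ± 0.694 CPM in GFP libraries (SD, n = 4 each, -0.28, edgeR adjusted p = 0.192). Neuropeptide Y, Npy, was at 0.33 in poly(PR) (edgeR adjusted p = 0.284), and the endopeptidase gene Ecel1 at 0.45 in poly(GR) (edgeR adjusted p = 0.398). Sprr1a and Arg1, injury genes of peripheral neurons, were too low to test.

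Markers of brain regions and of other cells also differed between groups. All 8 striatum markers lay above 0 in both cohorts, with medians of 0.49 in poly(PR), where 0 passed, and 0.34 in poly(GR), where 4 passed. Over all genes 0.0574% passed in poly(PR) and 0.173% in poly(GR), and 48.9% and 49.0% lay below 0. The summed level of the striatum markers was 1296 to 1973 CPM in poly(PR) and 1002 to 1154 CPM in GFP libraries, and 1266 to 1424 CPM in poly(GR) and 985 to 1159 CPM in GFP libraries, without overlap in either cohort. Adora2a, the adenosine receptor of striatal projection neurons, rose in poly(GR) libraries to 89.6 CPM, against 64.8 CPM in GFP libraries (edgeR adjusted p = 0.0105). In poly(PR) all 7 dentate gyrus markers (median -0.33, summed level 86.7 to 124 CPM in poly(PR) and 111 to 147 CPM in GFP libraries) and all 6 thalamus markers (median -0.44) lay below 0, with 0 passed. Of 8 excitatory neuron markers 7 lay below 0 in poly(PR), with a median of -0.17 and 0 passed. In poly(GR), 6 lay below 0 with a median of -0.09, and 1, Neurod6, fell to 61.0 CPM, against 75.5 CPM in GFP libraries (edgeR adjusted p = 0.0331). Oligodendrocyte markers summed to 5262 to 8409 CPM in poly(PR) and 5551 to 9163 CPM in GFP libraries (median -0.06, 0 passed). Of 8 astrocyte markers 1 passed in poly(PR), Gfap, the filament protein of reactive astrocytes, which rose to 467 ± 90.1 CPM, against 244 ± 53.6 CPM in GFP libraries (SD, n = 7 and 4, edgeR adjusted p = 0.0429). Of these 8 markers 6 lay above 0 and 2 below in poly(PR), with a median of 0.10. In poly(GR) 7 lay above 0 and 1 below, with a median of 0.23, and 0 passed. Of 6 choroid plexus markers 3 fell in poly(GR), with a median of -1.57. None passed among the interneuron, deep-layer, microglia, endothelial and cerebellar markers in either cohort. With the striatum level in the model, the poly(PR) estimates of Map2, Uchl1 and Gap43 changed sign. Those of Nefm (-0.57, SE 0.19), Nefh (-0.46, SE 0.22), Nefl (-0.21, SE 0.10), Rbfox3 (-0.31, SE 0.11) and Stmn2 (-0.23, SE 0.10) moved away from 0. Tubb3 moved towards 0 (-0.14, SE 0.14), and Eno2 was at -0.13 (SE 0.11). The summed striatum level did not overlap between poly(PR) and GFP libraries, so this fit cannot separate it from treatment. Nothing is drawn from these shifts. The edgeR adjusted p was 1.0 for each of the 10 genes in that fit. The part of tissue makeup in the values of the 10 genes was not tested.

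The 10 genes varied together only in part from animal to animal. With the 4 group means removed, the absolute Pearson correlation of log2 CPM between members had a median of 0.31 over 45 pairs across 19 libraries, which is a description of libraries that share 2 harvests. The highest positive values were 0.85 for Nefm with Nefh and 0.80 for Stmn2 with Gap43, and the lowest was -0.88 for Map2 with Uchl1. Nefl with Nefm, which both go without the reads they share, stood at 0.45. Among all tested genes the most alike to Uchl1 were Gstm5 (0.984), Prdx5 (0.977) and Cox6a1 (0.975), and to Map2 Cdc42bpa (0.977), Ptprz1 (0.966) and Mboat2 (0.965). The genes most alike to Nefh were Cldn11 (0.919), Aars (0.900) and Fa2h (0.895). Nefm was most like Rgs8 (0.921), Gars (0.912) and Ndufa9 (0.906). For Tubb3 they were Pgpep1 (0.858), Tubb4b (0.832) and Chst2 (0.810), and for Rbfox3 Atxn7l3 (0.874), Fbxl16 (0.869) and Brsk1 (0.869). Nefl was nearest to Paqr4 (0.876), S1pr5 (0.828) and Gpr37l1 (0.793), Eno2 to Jup (0.841), Rpn1 (0.832) and Wars (0.825), and Gap43 to Hey1 (0.832), Psma1 (0.828) and Actg1 (0.823).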

How the data were processed

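Gene tables of 19 libraries were used. The labels' protocols name total RNA and a stranded kit with paired ends, but the molecule field says polyA. In the 14 tables with strand columns, 49.9% to 50.1% of gene reads fell on each strand. Per the submitters' processing notes, Trimmomatic 0.36 and STAR 2.5.2b were used, with the builds mm10 and mm9 given no role. The deposited tables hold whole-number counts that the authors did not normalize. They were made before any step below. The annotation release is not given in the sources used here, and IDs were matched to GENCODE on GRCm38 (53706 of 53801). Rows for unmapped (2.77% to 4.07% of reads), multimapping (4.79% to 6.74%), unassigned (6.57% to 13.4%) and ambiguous reads (5.91% to 8.56%) were left out.

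The unstranded column was tested with edgeR 4.0.16 in R 4.3.3 (quasi-likelihood, TMM scaling, filterByExpr, sex as covariate, Benjamini-Hochberg over all genes tested, threshold 0.05) in each cohort, and over all libraries for the difference of effects and for sex. Fold changes are treated over GFP. CPM use TMM scaling within a cohort, and RPKM divide them by the merged exonic length. Ratios were compared by exact two-sided permutation tests and correlations by permutation (100000 resamples, exact for 7 libraries) in scipy 1.17.1. The procedure was tested on simulated data. Alternatives included DESeq2 1.42.0, sva 3.50.0, other scalings and filters, covariates and left-out libraries. The members and the gene lists were chosen with earlier results of these data known. All 10 members are named, with the called genes and genes of smallest p in each list and the 3 genes most alike to each member, except those of Stmn2, which are not reported here.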

Additional observations from a re-analysis of the deposited data

Results flagged for a closer look

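Of 56 groups of 4 or 7 libraries that were checked for a single library far from the rest, over the levels and ratios of the 10 genes, 2 held one, and chance alone marks about 1 in 20 such groups. Nefm had 214 CPM in GFP control replicate 4 of the poly(PR) cohort, against 230 to 232 CPM in the other controls of that cohort. All 7 poly(PR) libraries lay below that library too. Tubb3 had 326.0 CPM in poly(GR) replicate 4, against 353 to 357 CPM in the other poly(GR) libraries.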

How the results depend on the processing

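The count of members that passed was 0 in both cohorts, and it stayed at 0 when each library was left out in turn. For poly(PR) it became 2 with DESeq2 (Rbfox3, adjusted p = 0.0326, and Stmn2, adjusted p = 0.0169, where 2.34% of all genes passed), 2 with the mitochondrial share as a covariate in edgeR (Nefm at -0.31, adjusted p = 0.0112, and Rbfox3 at -0.17, adjusted p = 0.0469, where 5.54% passed) and 1 with 1 surrogate variable (Nefm at -0.26, edgeR adjusted p = 0.0462, where 3.15% passed). The cause was not tested. All were lower in poly(PR). Leaving out 1 library gave 0 to 617 called genes in poly(PR), the highest without poly(PR) replicate 6, and 0 to 111 in poly(GR). Against 11 genes called over the genome in poly(PR), there were 21 with library size alone, 69 without the filter on low counts, 448 with DESeq2, 4 without the sex term, 1061 with the mitochondrial share, 603 with 1 surrogate variable, 188 in 1 fit of all libraries, and 0 with the striatum level or in females. Against 32 in poly(GR), there were 522 without the filter, 155 with DESeq2, 8 without the sex term, 100 in females, 1 in the common fit, and 0 with the mitochondrial share or the striatum level.

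The following estimates turned sign, none of which had passed the test. The summed striatum level did not overlap between treated and GFP libraries, so nothing is drawn from the fits with it. In poly(PR), Eno2 was at 0.02 with library size alone, Map2 at 0.03, Uchl1 at -0.15 and Gap43 at -0.17 with the striatum level as covariate, and Uchl1 at -0.08 with 1 surrogate variable and at -0.0038 with shared reads added. In poly(GR), Uchl1 was at 0.02 with library size alone, 0.03 without the sex term and 0.05 in females, Rbfox3 at -0.22 and Eno2 at -0.28 with the striatum level, and at -0.0038 and -0.00028 with 1 surrogate variable. Nefh was at 0.09 in females. In 4-column tables it was at 0.06, where 93 genes were called, but these hold 1 GFP library, assumed to vary like the poly(GR) libraries, so nothing is drawn from them. Rbfox3 was at -0.03 and Map2 at -0.01 in 2-column tables. The poly(GR) ratios of Nefh to Nefl and to Nefm were at 0.15 and 0.11 in females. Leaving out 1 library moved Uchl1 over -0.04 to 0.09 and Gap43 over -0.02 to 0.05 in poly(PR). In poly(GR) it moved Nefh over -0.22 to 0.09, Rbfox3 over -0.04 to 0.06 and Uchl1 over -0.06 to 0.05, and the ratios Nefm to Nefl over -0.02 to 0.04, Nefh to Nefl over -0.13 to 0.02 and Nefh to Nefm over -0.12 to 0.01. No paired analysis was possible because the labels give no replicate numbers, only names in accession order.

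The estimates cover spread between animals, and counting error is small at these depths. The differences in the 10 genes were under 1.5-fold. On simulated counts 7 against 4 libraries recovered 52% of genes changed 1.5-fold, drawn at random over the range of expression. How reliably a change in these 10 genes would be recovered was not tested. The 2 peptides were given in separate cohorts with different repeat numbers.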
